A study of Mus musculus with 12 samples.

Results

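Timm23 and Gm10273 are a mouse gene and its near-identical single-exon copy. Timm23 encodes the channel-forming subunit of the TIM23 complex in the inner mitochondrial membrane. This complex takes proteins that carry an N-terminal targeting sequence from the TOM complex of the outer membrane and passes them into the matrix, where an Hsp70-driven motor pulls them in, or releases them into the inner membrane. Copies such as Gm10273, without introns, arise when an mRNA is reverse transcribed and inserted elsewhere in the genome, and short reads from the shared sequence cannot be placed in one copy or the other.

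The 2 genes, of 35865 genes in the files, were selected through the values of Gm10273. Gm10273 was chosen by its rise in 1 of the groups, and Timm23 as the gene whose sequence it carries. The question was whether the rise of Gm10273 was a transfer of reads from Timm23, so both were followed singly and as a sum in all 12 libraries. The values of Gm10273 across the groups are therefore given as a description with no test. Tests were made of Timm23, of sums of the copies and of genes of mitochondrial protein import. Gm10233, a further copy that shares reads with Gm10273, was also tested alone.

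The libraries were made from polyadenylated RNA of the mouse macrophage line RAW 264.7. These cells received extracellular vesicles (EVs) for 48 h, made by the mouse endothelial line MS-1 and given at 3 µg EV protein per ml. Electroporation loaded the EVs with a miRNA mimic. Ctrl-EVs carried a control mimic, cel-miR-67 in the study's methods, and the others are named after their mimic as miR-183-5p-EVs, miR-222-3p-EVs and miR-142-5p-EVs. Each of the 4 groups has 3 libraries, and all cells therefore received EVs and a mimic. Cells given no EVs were not analysed here. The titles number the libraries of each group 1 to 3, without stating what a number stands for. The study's methods say in general that experiments were repeated, but the labels do not say whether these libraries were separate cultures. If they were not, the p-values measure only a technical spread between libraries.

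The files give 16294611 to 22974853 estimated counts of read pairs per library. Of 8 macrophage markers, 7 reached 10 TPM (counts scaled by transcript length and library) in every group, and Adgre1 had 3.33 to 8.58 TPM. The 8 endothelial markers summed to 4.71 to 9.72 TPM per library. Among them Pecam1 had 2.36 to 4.14 TPM and Vwf 0.787 to 4.73 TPM, while Emcn and Kdr were at or near 0. The libraries differed by title number across the transcriptome, where 69.4% of the 13906 genes tested were called between the numbers (DESeq2 likelihood ratio test, adjusted p under 0.05).

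All positions refer to the mouse genome build GRCm38 with the GENCODE vM21 annotation. Timm23 lies at chr14:32180162-32201898 on the minus strand and its main transcript has 7 exons and 1173 bases. Gm10273 lies at chr10:59395632-59396757 on the plus strand, is annotated as protein coding and has 1 exon. Over 1121 aligned bases the reference transcripts of both genes differed at 1 base (99.9% identity). This base is in the 5′ untranslated region at chr14:32201754 and chr10:59395749, 6 bases before the start codon. It is G145A, with the Timm23 base first and positions counted from 1 at the 5′ end of the main Timm23 transcript. The stretches around it are shown because no other base separates the aligned parts of both transcripts, with the differing base in capitals.
Timm23: gccgtttgctgcGacctcatggaaggtggc
Gm10273: gccgtttgctgcAacctcatggaaggtggc

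The 630 coding bases, stop codon included, were the same in both genes, so that both encode the same 209 amino acids by annotation. After the last aligned base Gm10273 ends in 5 A, shown in capitals beside the same stretch of Timm23, a run of A being the usual mark of an inserted mRNA copy.
Gm10273: ataaagggtgaaaacagaaAAAAA
Timm23: ataaagggtgaaaacagaaCCAAA

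The transcript of Gm10273 that was quantified is shorter than its reference transcript. It is listed with 630 bases against 1126 in the reference (version 5 against version 4), the length of the coding sequence alone, so the G145A base and the A run lie outside it. The comparison rests on this length, since the sequence of version 5 was not used here. Of the 600 stretches of 31 bases (31-mers) in those coding bases 0 were found in Gm10273 alone, whereas 1205 of the 1836 31-mers of Timm23 were in no other listed gene. A read of Gm10273 thus had no sequence of its own in the list, a condition shared by 122 of the 13906 genes tested (0.877%).

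Timm23 and Gm10273 were not the only places where such reads could go. The processed pseudogenes Gm10233 (chr14:66045080-66045707, plus strand) and Gm10171 (chr1:172144274-172144901, minus strand) are listed with 628 bases each. They were identical to each other and to coding bases 1 to 628 of Timm23. Gm10273 therefore differs from them only by 2 further bases, which complete the stop codon and are in capitals here.
Gm10273: aaaggttccctgctccaacagtcactctGA
Gm10233: aaaggttccctgctccaacagtcactct
Gm10171: aaaggttccctgctccaacagtcactct

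A further processed pseudogene, Gm16209 (chr8:107037480-107038106, minus strand), was 98.2% identical over 627 bases and received 2.05 to 10.4 estimated counts per library. Gm7493, with 95.4% identity, was listed at 0 in all 12 libraries. Gm10273, Gm10233 and Gm10171 are called the 3 exact copies below. These pseudogenes came from the rule on sequence identity, but their sums with Timm23 and Gm10273 were formed after the data had been seen.

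**Figure D1:**
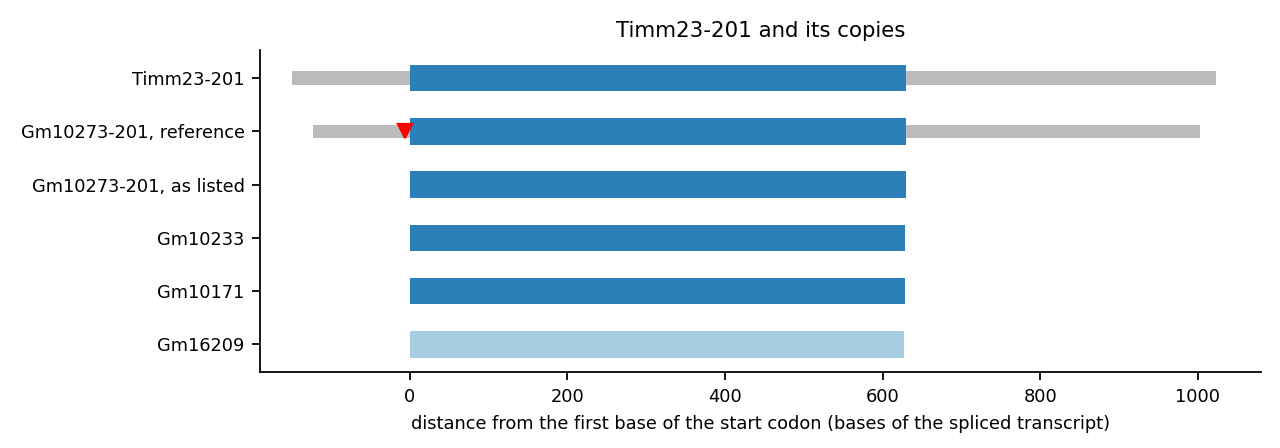
Transcripts of Timm23 and its copies, placed by distance in bases from the start codon of the spliced transcript. Thick bars are the coding sequence or its copy (dark blue identical to Timm23, light blue with differences), thin grey bars are untranslated regions, and the red mark is the single differing base. The listed transcript of Gm10273 ends with the coding sequence and lies whole inside the main transcript of Timm23.

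Gm10273 was low outside the miR-183-5p-EVs libraries. With ctrl-EVs it received 6.83, 8.66 and 6.99 estimated counts in the libraries of numbers 1, 2 and 3. With miR-183-5p-EVs it received 127, 18.6 and 126. The miR-142-5p-EVs libraries had 0.699, 3.56 and 1.06. Those of miR-222-3p-EVs had 2.24, 6.43 and 35.1. The miR-183-5p-EVs libraries were all above the ctrl-EVs libraries, but the library of number 2 stood close to them and below 1 of the miR-222-3p-EVs libraries. In 3 libraries the count was at or under 3, the number taken as the floor of detection, which was 0.131 to 0.184 CPM (counts scaled to the library total) in these libraries. The floor covers counting error only.

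After division by the DESeq2 size factors (normalized counts), Gm10273 averaged 77.0 ± 47.7 (SD, n = 3) with miR-183-5p-EVs, 13.7 ± 15.4 with miR-222-3p-EVs, 7.77 ± 2.14 with ctrl-EVs and 2.07 ± 2.18 with miR-142-5p-EVs. In this order miR-183-5p-EVs overlapped miR-222-3p-EVs, and miR-222-3p-EVs overlapped ctrl-EVs. The miR-142-5p-EVs libraries lay below those of ctrl-EVs, but with 0.699 to 3.56 estimated counts they were at or near the floor. The share of all genes separated in this way was not counted. Against the ctrl-EVs library of the same number, Gm10273 with miR-183-5p-EVs was 15.9, 2.15 and 16.1 times as high in numbers 1, 2 and 3. With miR-222-3p-EVs the ratios were 0.300, 0.778 and 4.87. The rise in number 3 of miR-222-3p-EVs thus had no counterpart in the other 2 libraries of that group. From its lowest to its highest library Gm10273 spanned 6.06 on the scale of log2(normalized count + 1).

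Per transcript length, Gm10273 remained the smaller of both genes. In TPM, which divides by length, it reached 17.6, 2.92 and 18.6 with miR-183-5p-EVs against 126, 88.8 and 127 for Timm23 in the same libraries. With ctrl-EVs it had 1.08, 1.49 and 1.02 TPM against 138, 88.1 and 140 for Timm23. As a share of the estimated counts of both genes, Gm10273 took 5.87%, 1.5% and 6.16% with miR-183-5p-EVs, 0.350%, 0.809% and 0.330% with ctrl-EVs, and 0.0376% to 1.88% in the other 6 libraries.

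Timm23 itself had overlapping levels in the groups. Its normalized counts were 1908, 1255 and 1930 with ctrl-EVs and 1706, 1446 and 1564 with miR-183-5p-EVs. The miR-142-5p-EVs libraries had 1631, 1320 and 1651. The miR-222-3p-EVs libraries had 1736, 1217 and 1620. In each group the library of number 2 was the lowest. A lower level in such bulk libraries can come from fewer cells with the transcript or from less of it per cell, which cannot be told apart.

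Timm23 was not called between miR-183-5p-EVs and ctrl-EVs. The log2 fold change was -0.14 ± 0.21 (SE), with a 95% interval from -0.54 to 0.27 (DESeq2, adjusted p = 1.0). It was -0.18 with miR-222-3p-EVs, -0.16 with miR-142-5p-EVs and -0.16 ± 0.17 for the mean of all miR-EVs (adjusted p = 1.0 in each). In these comparisons DESeq2 called 0.00719% of the 13906 genes with miR-142-5p-EVs (1 gene) and 0% with miR-183-5p-EVs, miR-222-3p-EVs or all miR-EVs, where an unadjusted p under 0.05 was reached by 138, 101 and 143 genes. edgeR called 0 genes in the same comparisons. A test for any difference among the 4 groups, in which 0.00719% of genes were called, gave Timm23 an adjusted p of 1.0. With the title number as a block the fold change for miR-183-5p-EVs was -0.12 ± 0.10 (adjusted p = 0.678). Without the libraries of number 2, left out after the data had been seen, it was -0.24 ± 0.15. The fits without the block leave differences between title numbers in their spread. With the block Timm23 was at -0.17 ± 0.10 with miR-222-3p-EVs (DESeq2, adjusted p = 0.717). With miR-142-5p-EVs it was at -0.14 ± 0.10 (adjusted p = 0.929). For all miR-EVs it was at -0.15 ± 0.08 (adjusted p = 0.472).

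The differences by number did not share a direction. With miR-183-5p-EVs, the normalized count of Timm23 minus that of the ctrl-EVs library of the same number was -202, 191 and -366 in numbers 1, 2 and 3. Gm10273 was higher by 99.7, 11.8 and 96.3 in numbers 1, 2 and 3. The difference of Timm23 in numbers 1, 2 and 3 was -277, 64.7 and -279 for miR-142-5p-EVs. For miR-222-3p-EVs it was -171, -38.3 and -310, all below 0. In the same numbers Gm10273 differed by -6.08, -5.67 and -5.36 for miR-142-5p-EVs. For miR-222-3p-EVs it differed by -4.68, -2.27 and 24.7.

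**Figure D2:**
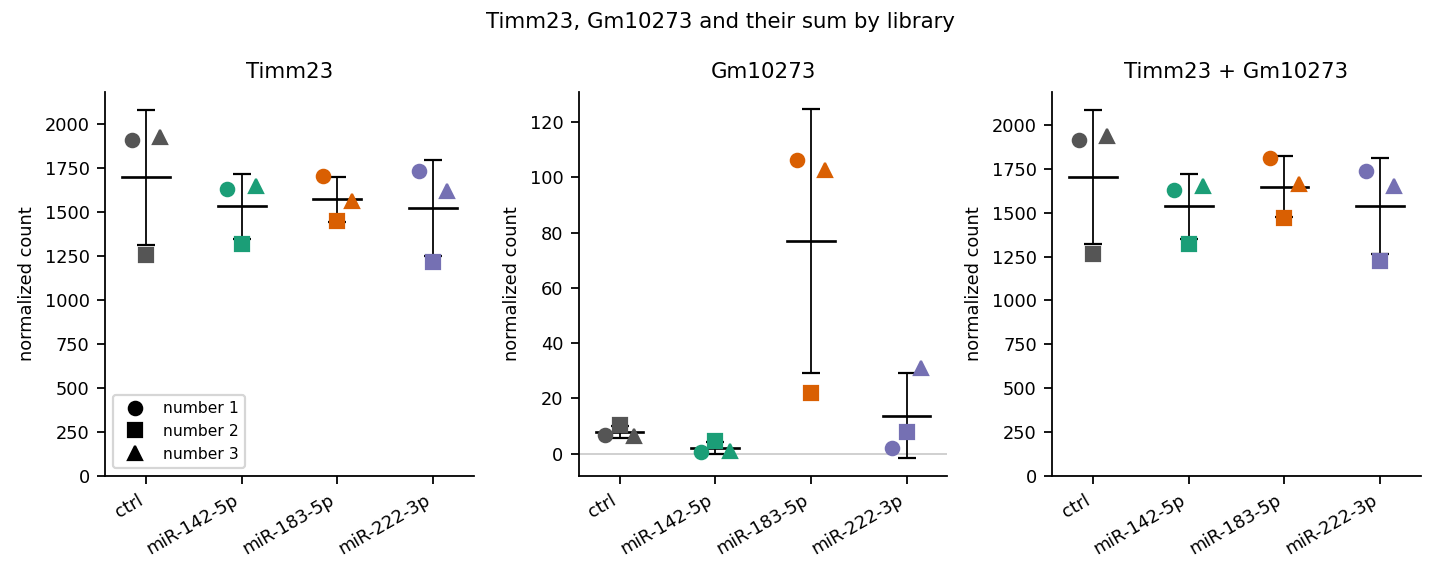
Normalized counts (estimated counts divided by the size factor) of Timm23, Gm10273 and their sum in the 12 libraries. Points are libraries, with the symbol giving the title number, and bars are the group mean with 1 SD (n = 3). Gm10273 is highest in miR-183-5p libraries 1 and 3, while in Timm23 and in the sum the library of number 2 is the lowest of each group.

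The summed count of Timm23 and Gm10273 stays the same if reads pass from one to the other. Its normalized counts were 1914, 1266 and 1936 with ctrl-EVs and 1812, 1468 and 1667 with miR-183-5p-EVs, so that the groups overlapped. The log2 fold change of the sum was 0.00 ± 0.22, with a 95% interval of the change from -25.4% to 34.0% (DESeq2, adjusted p = 1.0). Without the length offset, under which the count sum is unaffected by any transfer, it was -0.05 ± 0.22, and without the libraries of number 2 it was -0.06 ± 0.14. The sum was also not called with miR-142-5p-EVs (-0.17 ± 0.22), with miR-222-3p-EVs (-0.16 ± 0.22) or for all miR-EVs (-0.11 ± 0.18), each with an adjusted p of 1.0.

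This sum could not resolve where the reads of Gm10273 came from. The mean of Gm10273 with miR-183-5p-EVs exceeded that with ctrl-EVs by 69.2 normalized counts, which is 4.06% of the ctrl-EVs mean of the sum, 1705 ± 381 (SD, n = 3). These counts are without the length offset. A rise of 4.06% lay inside the interval without the offset, -27.9% to 29.7%, and with the replicate block, -14.1% to 11.3%. It also lay inside the interval above, with the offset, and inside the narrower one with the replicate block, -11.5% to 14.5%. A sum that stayed level and a sum raised by all the reads of Gm10273 were therefore not distinguishable at this precision.

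The summed TPM of both genes was also similar in the groups. It averaged 127 ± 30.4 with miR-183-5p-EVs and 123.3 ± 29.2 with ctrl-EVs (SD, n = 3, exact permutation test, two-sided, p = 0.50). The mean was 114 ± 29.8 for miR-222-3p-EVs and 114 ± 22.4 for miR-142-5p-EVs (exact permutation p = 0.50 in each). The Benjamini-Hochberg adjusted p over the 4 comparisons was 0.667 for each of the 3 groups. The smallest p that 3 libraries against 3 allow is 0.10, so no such difference could have passed 0.05. For all miR-EVs, 118 ± 24.9 (n = 9), the exact p was 0.673.

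Gm10233 and Gm10171 were lower in the group where Gm10273 was higher. Both received the same estimated counts to within 0.086 in every library. With ctrl-EVs Gm10233 had 112, 114 and 130 estimated counts, and with miR-183-5p-EVs 97.3, 72.6 and 70.3. Gm10233 had 165, 75.5 and 141 in the miR-142-5p-EVs libraries. It had 127, 103 and 137 in those of miR-222-3p-EVs. On the normalized scale the 3 miR-183-5p-EVs libraries, at 57.3 to 85.8, were all below the ctrl-EVs libraries, at 110 to 135, in a comparison with 0% of genes called. How many of all genes were separated like this was not counted. The log2 fold change of Gm10233 with miR-183-5p-EVs was -0.70 ± 0.24 (DESeq2, unadjusted p = 0.00355, adjusted p = 1.0, and 0.159 with the replicate block). It was thus not called, and Gm10171, with the same reads, is no second observation of it. Gm10233 also lies whole within the coding sequence of Gm10273, which was chosen by its rise in this group. The p-values of Gm10233 are therefore not independent of that choice.

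Number by number, Gm10233 and Gm10171 together differed between miR-183-5p-EVs and ctrl-EVs by -57.7, -98.8 and -122.6 normalized counts. This stood beside the 99.7, 11.8 and 96.3 by which Gm10273 was higher. The sum of the 3 exact copies therefore differed by 42.0, -87.0 and -26.4, and its libraries overlapped those of ctrl-EVs. It averaged 227 ± 38.7 with miR-183-5p-EVs and 250.4 ± 27.4 with ctrl-EVs (normalized counts, SD, n = 3). The mean was 256 ± 22.4 for miR-222-3p-EVs and 254 ± 49.0 for miR-142-5p-EVs. Within this sum Gm10273 took 39.5%, 11.4% and 47.3% with miR-183-5p-EVs, against 2.95%, 3.65% and 2.62% with ctrl-EVs. It took 0.211% to 11.4% in the other 6 libraries.

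**Figure D3:**
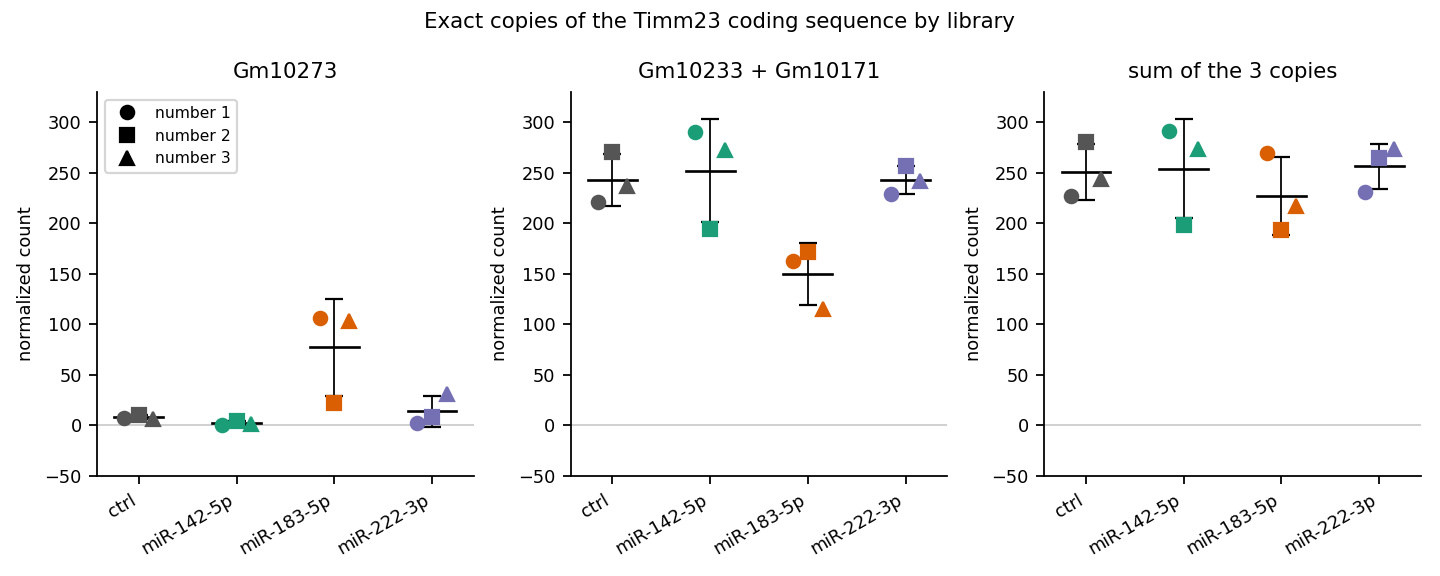
Normalized counts of Gm10273, of Gm10233 and Gm10171 together, and of the 3 exact copies in the 12 libraries, on one scale. Points are libraries with the symbol giving the title number, bars are the mean with 1 SD (n = 3). With miR-183-5p, Gm10273 is above and the pair of pseudogenes below the ctrl libraries, and the sum overlaps them.

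The sum of the 3 exact copies was not called with miR-183-5p-EVs. Its log2 fold change was -0.14 ± 0.22, with a 95% interval of the change from -32.2% to 21.9% (DESeq2, adjusted p = 1.0). With the replicate block the upper end was 16.6%. The mean of Gm10273 was higher by 69.2 normalized counts. This was 27.7% of the ctrl-EVs mean of this sum, above both upper ends. Gm10273 was chosen by this rise and is part of the sum, so no conclusion is drawn from this comparison. Without the libraries of number 2 the log2 fold change was 0.05 ± 0.24, with an interval from -25.3% to 43.3%. There the higher mean of Gm10273 was 41.64% of the ctrl-EVs mean of this sum, inside that interval. With the replicate block the upper end was 41.55%, just below it. A rise of this sum in numbers 1 and 3 was thus not clearly distinguishable from a level sum. Where the reads came from was not tested.

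Timm23 and its 4 copies that received reads, taken as 1 gene, were not called either. The sum averaged 1953 ± 358 normalized counts with ctrl-EVs and 1805 ± 164 with miR-183-5p-EVs (SD, n = 3). The log2 fold change was -0.13 ± 0.18 (DESeq2, adjusted p = 1.0), and -0.13 ± 0.09 with the replicate block (adjusted p = 0.564). It was -0.12 ± 0.18 for miR-222-3p-EVs and -0.11 ± 0.18 for miR-142-5p-EVs. The 3 exact copies held 10.6% to 18.2% of the estimated counts of this sum in the 12 libraries. The estimated count of this sum was within 0.01 of a whole number in 4 of the 12 libraries. In the others some reads may also be shared with transcripts outside these genes, which was not examined.

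**Figure D4:**
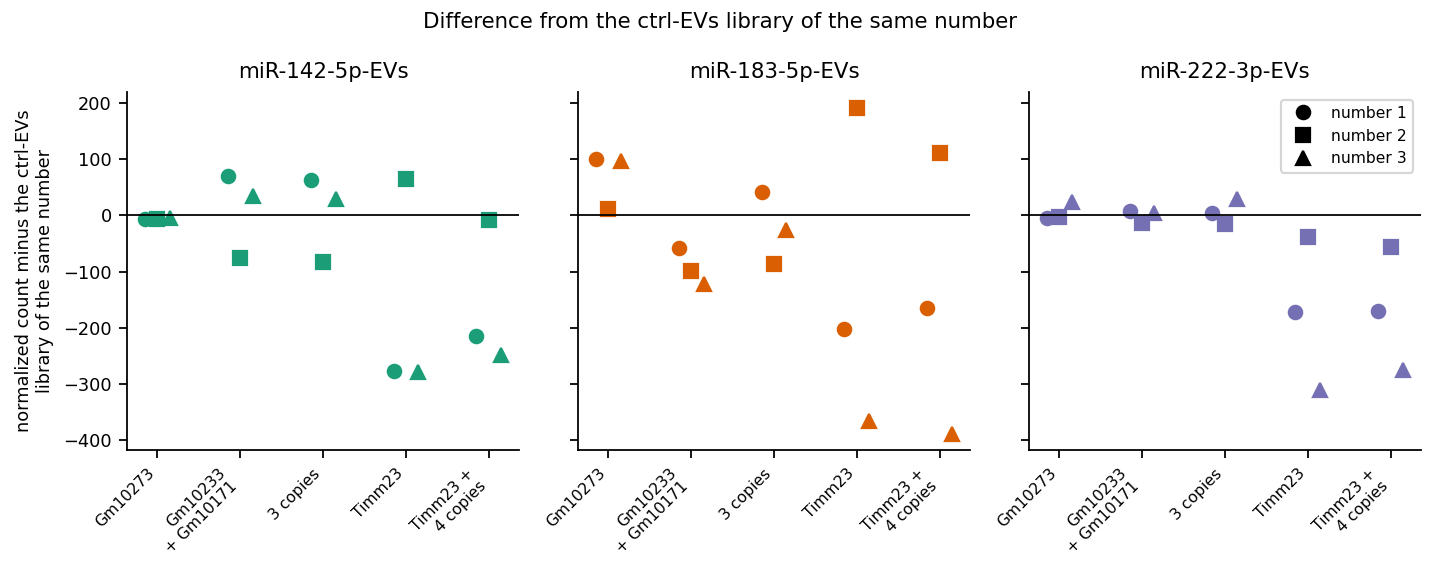
Normalized count of each miR-EVs library minus that of the ctrl-EVs library of the same number, for Gm10273, for Gm10233 and Gm10171 together, for the 3 exact copies, for Timm23 and for Timm23 with its 4 copies. With miR-183-5p-EVs all 3 points of Gm10273 are above 0 and all 3 of Gm10233 and Gm10171 below it, while Timm23 has points on both sides.

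**Figure D5:**
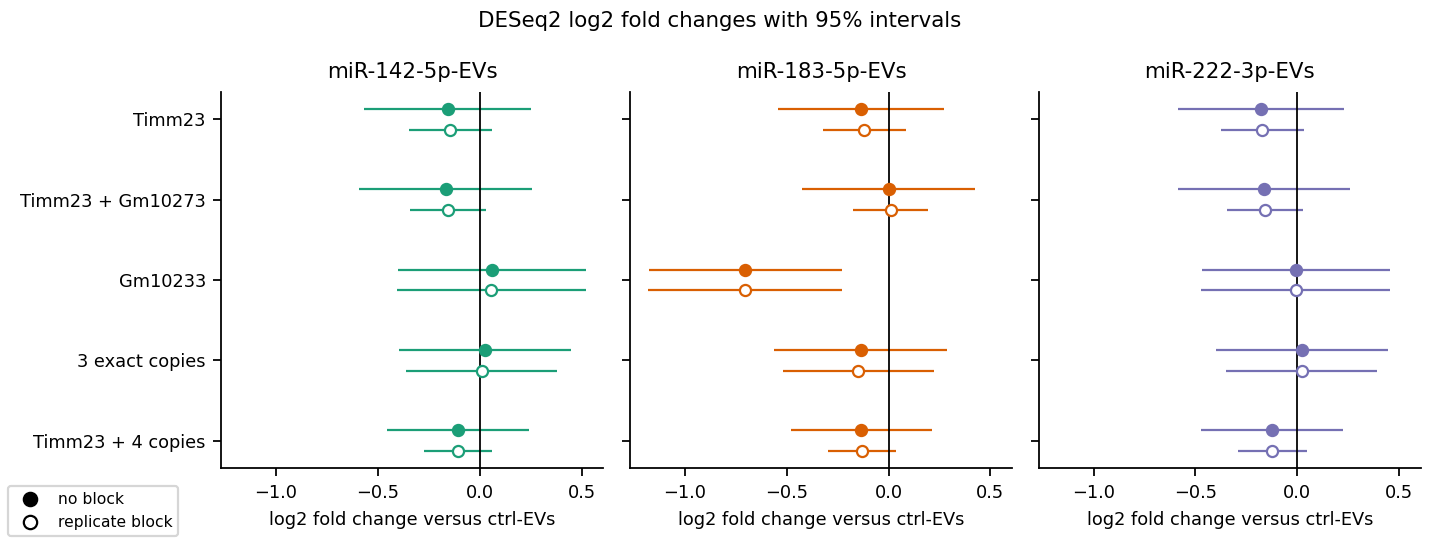
DESeq2 log2 fold changes against ctrl-EVs with 95% intervals for Timm23, its sum with Gm10273, Gm10233, the 3 exact copies and Timm23 with its 4 copies, without (filled) and with (open) the title number as a block. All intervals span 0 except that of Gm10233 with miR-183-5p-EVs, which was not called after adjustment over all genes. Gm10233 shares reads with Gm10273, so this interval is not independent of the choice of Gm10273 by its values.

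A measure of the fragments differed between the libraries and is given beside Gm10273. The length of the main Timm23 transcript minus its deposited effective length, which Salmon sets from the fragment lengths of the library, was 200, 202 and 198 bases with ctrl-EVs. The miR-183-5p-EVs libraries had 208, 204 and 211 bases. Those of miR-222-3p-EVs had 199, 204 and 207 bases, and those of miR-142-5p-EVs had 200, 208 and 200. In the ctrl-EVs, miR-222-3p-EVs and miR-142-5p-EVs groups the library with the largest value also had the most estimated counts of Gm10273 in its group, at 8.66, 35.1 and 3.56. With miR-183-5p-EVs the library of number 2 had the smallest value and the fewest counts. Between groups, a miR-183-5p-EVs library at 208 bases had 127 counts of Gm10273, whereas the miR-142-5p-EVs library at 208 bases had 3.56. The part of the fragment lengths in the result was not tested.

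Among the 8 listed transcripts of Timm23, the main one held 90.4% to 99.3% of the estimated counts of the gene. Its share was 90.4% to 94.3% in the 4 libraries of number 2 and 97.0% to 99.3% in the other 8, without overlap, and each group had both kinds of library. How many of all genes had a main transcript separated in this way was not counted. A processed transcript with no annotated reading frame had 4.14 to 64.5 estimated counts per library. The other 6 transcripts had at most 16.8 estimated counts each in any library.

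Timm23 as a whole also followed the title number. Its normalized counts were 1217 to 1446 in number 2 and 1564 to 1930 in numbers 1 and 3, without overlap. The likelihood ratio test of the numbers called Timm23 (DESeq2, adjusted p = 4.66e-05) and its sum with Gm10273 (adjusted p = 5.83e-07), in a comparison that called 69.4% of all genes tested. The 3 exact copies did not follow the numbers in the same test (adjusted p = 0.542), with 194 to 281 normalized counts in number 2 and 217 to 291 in the others.

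Genes with a pattern like that of Timm23 over the 12 libraries included Nudt21 (Pearson r = 0.97), a subunit of the mRNA cleavage factor, and Tuba4a (0.96), an alpha-tubulin. They were among the 3 closest of 10836 genes that averaged 50 or more normalized counts, on log2(normalized count + 1). Both were also among the 3 closest to the sum with Gm10273. For Gm10273 the closest were Gprasp1 (r = 0.63), Dhx57 (0.61) and Slc2a4rg-ps (0.59), and its r with Gm10233 was -0.77. These values describe libraries that share title numbers and, for the copies, reads.

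Partners of Timm23 in the TIM23 complex and its motor showed no called change. All 12 listed genes were tested and 0 were called in any of the 3 comparisons with DESeq2. With miR-183-5p-EVs 11 of the 12 had a log2 fold change below 0, as did 48.3% of all 13906 genes. The median of the 12 was -0.09, against 0.01 over all genes, and 0 of the 12 reached an unadjusted p under 0.05. With the replicate block the median was -0.12 and 1 of the 12 reached it, Dnlz at -0.36 ± 0.16 (DESeq2, unadjusted p = 0.0215, adjusted p = 0.315). In that fit 1409 of all 13906 genes reached an unadjusted p under 0.05, against 138 without the block. Without the block 8 of the 12 were below 0 with miR-222-3p-EVs (median -0.07) and 10 with miR-142-5p-EVs (median -0.11). Of all genes 47.0% and 48.0% were below 0 in these comparisons. The 3 comparisons share the ctrl-EVs libraries.

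The largest value in this list with miR-183-5p-EVs belonged to Pam16, a regulatory subunit of the import motor. It had 219, 83.6 and 221 normalized counts (with the length offset) with ctrl-EVs and 133, 105 and 105 with miR-183-5p-EVs, which overlapped, and a log2 fold change of -0.61 ± 0.37 (DESeq2, adjusted p = 1.0). Dnlz, a chaperone partner of the mitochondrial Hsp70, was at -0.33 ± 0.51, and Timm21, which links the TIM23 complex to the TOM complex, at -0.20 ± 0.36.

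Of 29 other genes of mitochondrial protein import, including the TOM complex, the TIM22 carrier translocase, the small TIM chaperones and the processing peptidases, 0 were called in any of the 3 comparisons. With miR-183-5p-EVs 20 of them were below 0, with a median log2 fold change of -0.04, and 0 of the 29 reached an unadjusted p under 0.05, as with the replicate block. Of all 13906 genes 48.3% were below 0 in this comparison, with a median of 0.01. An unadjusted p under 0.05 was reached by 138 of them, and by 1409 with the block. The largest values were those of Timm22, the carrier translocase channel (-0.29 ± 0.52), and of the small TIM chaperones Timm13 (-0.23 ± 0.30) and Timm10b (-0.18 ± 0.22). edgeR also called 0 genes of both lists.

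Neither the main Timm23 transcript nor the reference transcript of Gm10273 held the complement of bases 2 to 8 of a delivered miRNA. Other transcripts of Timm23 and shorter matches were not searched. The mature mouse miRNAs, from RefSeq on GRCm38.p6, are shown with the seed (bases 2 to 8) in capitals, since its complement is what was searched for.
mmu-miR-142a-5p: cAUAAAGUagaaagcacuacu
mmu-miR-183-5p: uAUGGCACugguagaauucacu
mmu-miR-222-3p: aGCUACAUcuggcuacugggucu

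The complement of the miR-183-5p seed, GTGCCAT, was found 0 times on the sense strand of the reference transcripts of both genes, while 8.19% of the 623 transcripts within 10% of the length of the main Timm23 transcript held it. The site for miR-142-5p, ACTTTAT, was also found 0 times, against 5.46% of those transcripts. The site for miR-222-3p, ATGTAGC, was found 0 times, against 3.69%. A match or its absence is a description of these letters only.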

How the data were processed

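The RNA-Seq data cover 12 libraries of RAW 264.7 cells in 4 groups taken from the titles. Stranded mRNA libraries were sequenced by the authors in paired-end mode. Their reads were assigned to mouse Ensembl transcripts with Salmon, which divides a read that fits several transcripts by an estimate. The deposited files hold for each transcript an estimated count, fractional where reads are shared and not scaled for depth. They also hold the TPM value deposited by the authors, a count divided by effective length and scaled to 1000000 per library. Replicates were not pooled, and whether the strand was used in the assignment is not given in the sources used here.

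Transcripts were matched by identifier to GENCODE vM21 (98.2% of 118783). The others held 0.605% to 0.707% of the counts of a library. Estimated counts were summed by gene, or over several genes as 1 row, and rounded. DESeq2 1.42.0 (R 4.3.3) was fitted over all 4 groups to genes that reached 10 counts in 3 or more libraries, with TPM-weighted effective lengths as an offset and a threshold of 0.05 on the Benjamini-Hochberg adjusted p over all genes. Intervals are 1.96 SE on either side. Normalized counts are estimated counts divided by size factors without the offset, unless stated. edgeR 4.0.16 (quasi-likelihood) was an alternative, and the summed TPM was compared by exact permutation tests. Both tools were tested on simulated data. Sequences were compared with Biopython 1.88.

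Same-numbered libraries deviated together in 18 of 18 pairs (mean r = 0.608, lowest 0.409). Pairs of different numbers were not compared, so these values do not show that number 1 pairs with 1 and number 3 with 3. The numbers from the titles were taken to pair the libraries, and the number was entered as a block in a further fit. Named genes were both members, genes of 2 lists called or else the 3 with the largest change per list, the 3 most alike in pattern (1 of them is not reported here), and listed genes at least 95% identical over at least 80% of their length. The members and lists were chosen with earlier results of these data known.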

Additional observations from a re-analysis of the deposited data

How the results depend on the processing

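The sum of Timm23 and Gm10273 lay so near 0 with miR-183-5p-EVs that its sign turned without a call. It was 0.00977 (log2) with the replicate block, 0.0201 with TMM size factors and 0.00045 by edgeR with the block, and the libraries left out one at a time gave -0.16 to 0.11. The change in summed TPM turned from 3.48 to -4.69 as CPM, and ranged from -13.4 to 21.0 TPM without single libraries, from -25.9 to 3.58 with miR-142-5p-EVs, -26.7 to 7.13 with miR-222-3p-EVs and -22.0 to 3.81 for all miR-EVs. The sum of the 3 exact copies, an alternative chosen after seeing the data, turned to 0.0493 with miR-183-5p-EVs and 0.13 for all miR-EVs without the libraries of number 2. Without single libraries it ranged from -0.29 to -0.02, from -0.0827 to 0.179 with miR-142-5p-EVs, -0.0427 to 0.0922 with miR-222-3p-EVs and -0.0907 to 0.0378 for all miR-EVs. The cause was not tested. The pairing by title number, entered as a block, changed no call of Timm23, of the sums or of the import lists. Across all genes it raised the calls by DESeq2 from 0 to 57 with miR-183-5p-EVs, from 1 to 8 with miR-142-5p-EVs, from 0 to 9 with miR-222-3p-EVs and from 0 to 87 for all miR-EVs, while edgeR with the block called 0 in each (1491 genes at an unadjusted p under 0.05 with miR-183-5p-EVs). In deposited TPM the mean share of Gm10273 in both genes was 9.43% with miR-183-5p-EVs, 1.93% with miR-222-3p-EVs and 1.06% with ctrl-EVs, since TPM weights the shorter gene more. Depth limits Gm10273 outside miR-183-5p-EVs, where it had few counts, and the division of identical sequence between copies cannot be checked from estimated counts.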
